A study of Homo sapiens with 6 samples.

Results

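Of the 25987 genes with a symbol in the table, 9 encode the core of major histocompatibility complex (MHC) class I antigen presentation and were taken by symbol. They are the class I chains HLA-B, HLA-C, HLA-E and B2M, the peptide-loading genes TAP1, TAP2 and TAPBP, and the immunoproteasome subunits PSMB8 and PSMB9. All 9 passed the filter on low counts and were among the 12944 genes tested. RNA came from 6 cultures of 786-O, an established wild-type (per the labels) human clear cell renal carcinoma line known to lack functional VHL. In 3 cultures the cells had been grown long term with copper, given as copper sulfate bound to serum proteins, and 3 control cultures received serum handled alike without copper. The series asks what copper does to the metabolism of this cancer. Its text gives a dose of 30 uM, while copper replicates 1, 2 and 3 are labelled 30, 31 and 32 uM, and all 3 were treated as 1 group. The labels do not say that the cultures were independent, so p-values measure the spread between these samples only.

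MHC class I molecules display peptides from inside the cell to CD8+ T cells. The proteasome cuts proteins to peptides, TAP1 and TAP2 pump these into the endoplasmic reticulum, tapasin (TAPBP) holds the empty class I molecule to the pump, and a heavy chain (HLA-B, HLA-C or HLA-E) with its light chain B2M carries the peptide to the surface. Interferon-gamma is known to induce the whole set, through IRF1 and the class I transactivator NLRC5, and NF-kappa B acts on the heavy chain promoters. Loss of this display is a known route of immune escape in tumours.

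Copper libraries held 16301772 to 18189469 counts and control libraries 19219090 to 25079913. Replicate 3 of both groups stood apart from the rest. The first principal component carried 57.9% of the variance, with copper replicate 3 at 41.2 and control replicate 3 at 17.6, against -17.6 to -11.7 for replicates 1 and 2. On the second component (18.1%) the groups were apart, with copper at 8.88 to 13.3 and control at -18.7 to -5.79. Of 8 markers fixed for the line, CA9 and LRP2 were under 1 CPM (the gene's count over the scaled library total, in parts per 1000000) in every library. PAX8, a renal lineage factor, stood at 133 ± 9.65 CPM in copper and 139 ± 12.3 CPM in control (SD, n = 3). The summed level of the 8 was 3667 to 4620 CPM in copper and 3916 to 4124 CPM in control. Most of this sum was VIM, at 3130 ± 571 CPM in copper and 3121 ± 205 CPM in control (SD, n = 3). All 8 leukocyte markers, PTPRC among them, were under 1 CPM in every library, and their sum was 0.610 to 1.03 CPM in copper and 0.539 to 0.996 CPM in control. The 5 fibroblast markers summed to 9.75 to 13.7 CPM in copper and 11.9 to 19.2 CPM in control, and the 4 endothelial markers to 0.427 to 1.40 and 0.735 to 1.52 CPM. No marker was at 0 in all libraries.

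No gene of the 9 passed the test between copper and control, yet every one had a positive log2 fold change, and 5 were higher in all copper libraries than in any control library. The 5 were HLA-B, HLA-C, B2M, PSMB8 and PSMB9. HLA-E, TAP1, TAP2 and TAPBP overlapped between groups. Of all 12944 tested genes, 6657 had a positive log2 fold change. Among the 9, the values of HLA-E (0.01) and TAPBP (0.02) were near 0. In replicates 1 and 2 alone 7 of the 9 were positive, while HLA-E and TAPBP were negative, as they also were with no filter on low counts. In 6 of the 9 the copper library was higher in all 3 same-numbered pairs, against 17.7% of all tested genes (17% were lower in all 3). In bulk RNA a change in every cell cannot be told apart from a change in the share of cells with a high level. The median log2 fold change of the 9 was 0.19, against 0.0052 for all tested genes. By edgeR's quasi-likelihood test 0 of the 9 had an adjusted p under 0.05, against 0% of all genes tested. At an unadjusted p under 0.05 there were 2 of the 9 (HLA-B and PSMB8), against 3.52% of all genes, and DESeq2 and limma-voom each called 0 of the 9. With replicate number as a block, edgeR called 0 of the 9 against 0.17% of all genes, and 4 (HLA-B, HLA-C, PSMB8 and PSMB9) had an unadjusted p under 0.05 against 8.41%. Groups without overlap and with copper higher made up 5.45% of all tested genes, and those without overlap in either direction 10.8%. The 9 genes are not independent observations, and these counts describe the list only. The 9 were also chosen with earlier results of these data known, so their comparison with all genes is no independent support.

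**Figure D1:**
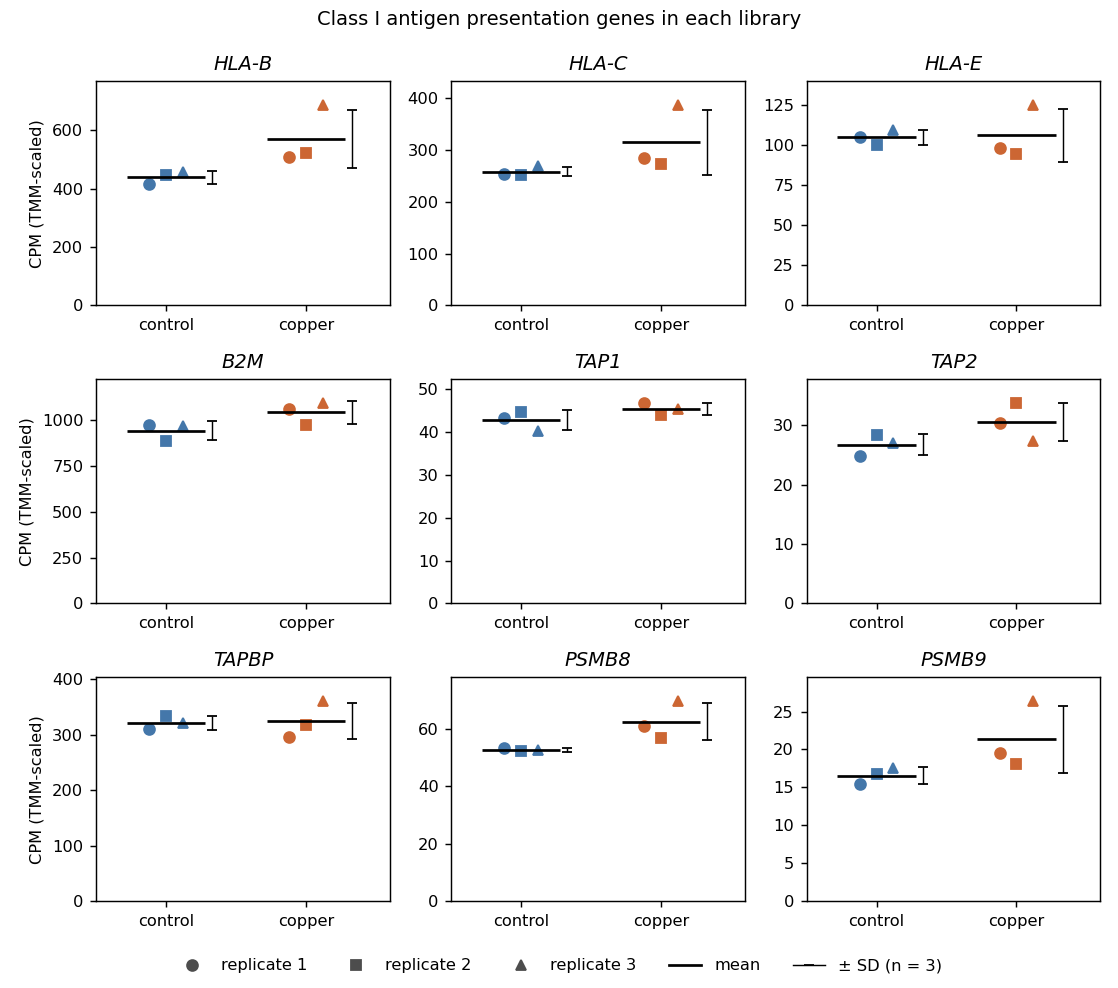
Level of each of the 9 genes in every library, in CPM scaled by TMM factors, with control in blue and copper in orange. Points are libraries, black lines the group means and bars 1 SD to each side (n = 3). For HLA-B, HLA-C, HLA-E, B2M, TAPBP, PSMB8 and PSMB9 the highest point is copper replicate 3.

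HLA-B, a classical heavy chain (Entrez 3106; GRCh38.p14 chromosome 6, 31353875 to 31357179), had the largest fold change of the 9. It stood at 508, 520 and 686 CPM in copper replicates 1, 2 and 3 and at 414, 445 and 458 CPM in control. Every copper library was above every control library, and copper replicate 3 was far above the other copper libraries. The means were 571 ± 99.3 and 439 ± 22.3 CPM (SD, n = 3), and the log2 fold change was 0.38 (SE 0.14, 95% interval 0.065 to 0.69). By edgeR the unadjusted p was 0.0243 and the adjusted p 1.00, and with replicate number as a block the adjusted p was 0.325. In replicates 1 and 2 alone the log2 fold change was 0.26, with an adjusted p of 0.0836, and without copper replicate 3 it was 0.23.

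HLA-C, the second classical heavy chain among the 9 (Entrez 3107; chromosome 6, 31268749 to 31272092), had a smaller fold change than HLA-B. Its copper libraries held 284, 273 and 386 CPM and its control libraries 254, 251 and 268 CPM. Copper replicates 1 and 2 lay only just above the control range, and copper replicate 3 well above it. The log2 fold change was 0.29 (SE 0.14, 95% interval -0.049 to 0.62), with an unadjusted p of 0.0842 by edgeR. Without copper replicate 3 it was 0.11, and in replicates 1 and 2 alone 0.14.

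The upstream windows of HLA-B, HLA-C, B2M and TAP1 are shown because these genes are known to share regulatory elements. Each is the 250 bases before the RefSeq start, from RefSeq (GRCh38.p14), printed 5′ to 3′ on the gene's strand. Capitals mark matches on either strand to 4 motifs: AANNGAAA (the IRF core of interferon elements), TTCNNNGAA (GAS, the gamma-activated site), the kappa B consensus, and CCAAT. The HLA-B window is chr6:31357180-31357429 on the minus strand, and that of HLA-C chr6:31272093-31272342 on the minus strand. That of B2M is chr15:44711267-44711516 on the plus strand, and that of TAP1 chr6:32853705-32853954 on the minus strand.
HLA-B: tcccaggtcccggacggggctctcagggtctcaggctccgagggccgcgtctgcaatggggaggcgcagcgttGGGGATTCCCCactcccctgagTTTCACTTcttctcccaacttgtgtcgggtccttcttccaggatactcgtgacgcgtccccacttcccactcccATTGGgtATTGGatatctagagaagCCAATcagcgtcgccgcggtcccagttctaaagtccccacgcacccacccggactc
HLA-C: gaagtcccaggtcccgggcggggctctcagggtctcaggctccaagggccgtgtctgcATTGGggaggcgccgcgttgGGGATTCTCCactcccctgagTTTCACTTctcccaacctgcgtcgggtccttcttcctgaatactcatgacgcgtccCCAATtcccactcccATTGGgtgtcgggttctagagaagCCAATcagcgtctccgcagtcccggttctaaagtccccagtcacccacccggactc
B2M: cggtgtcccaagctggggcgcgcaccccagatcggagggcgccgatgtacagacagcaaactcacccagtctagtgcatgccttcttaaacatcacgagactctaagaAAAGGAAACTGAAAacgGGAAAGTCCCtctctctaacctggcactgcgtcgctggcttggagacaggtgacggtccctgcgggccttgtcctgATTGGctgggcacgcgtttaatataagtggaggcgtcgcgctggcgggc
TAP1: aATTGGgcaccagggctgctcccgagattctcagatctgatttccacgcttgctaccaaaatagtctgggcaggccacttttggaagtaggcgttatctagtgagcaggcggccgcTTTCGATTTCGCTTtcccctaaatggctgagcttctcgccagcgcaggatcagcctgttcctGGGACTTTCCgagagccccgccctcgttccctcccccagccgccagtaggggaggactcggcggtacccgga

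In HLA-B a kappa B match 177 to 167 bases before the start lay next to an IRF core match at 155 to 148 bases. The kappa B matches of HLA-B fall on both strands and overlap, so they mark 1 stretch. HLA-C had the same order, with kappa B at 172 to 163 and the IRF core at 151 to 144 bases. In B2M the order was turned, with 2 overlapping IRF core matches at 142 to 129 bases and kappa B at 125 to 116 bases. TAP1 held IRF core matches at 134 to 121 and kappa B at 72 to 63 bases before its upstream start. Windows were found for 8 of the 9 genes, with 2 starts each for TAP1 and PSMB8, so these 2 genes had 2 chances of a match. The IRF core was matched in 6 of these 8 genes and in 20.3% of all 35116 windows of this length. The kappa B consensus was matched in 5 of 8 (HLA-B, HLA-C, B2M, TAP1 and TAPBP) and in 5.21% of all windows. GAS was matched in 2 of 8 (PSMB8, and TAP1 in its window not printed) and in 6.57% of all windows. CCAAT was matched in 5 of 8 and in 32.0%. The CCAAT matches of TAP1 and PSMB9 are the same bases, since their windows overlap. The PSMB9 window held neither the IRF core nor the kappa B letters. Those of TAP1 lie between the starts of TAP1 and PSMB9, farther from PSMB9 than its window of 250 bases reaches. A match is a description of the letters only. The motif letters were chosen with these windows in view.

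HLA-E, the non-classical heavy chain that presents leader peptides to NK cell receptors (Entrez 3133; chromosome 6, 30489509 to 30494194), differed little between groups. It stood at 98.4, 94.8 and 125 CPM in copper and 105, 100.1 and 110 CPM in control. Copper replicates 1 and 2 were below all control libraries and copper replicate 3 above them. The log2 fold change was 0.01 (95% interval -0.28 to 0.31), and in replicates 1 and 2 alone it was -0.09 with an adjusted p of 0.585.

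B2M, the light chain shared by all class I molecules (Entrez 567; chromosome 15, 44711517 to 44718145), had the highest level of the 9 per exon length in either group. Its copper libraries held 1062, 975 and 1094 CPM and its control libraries 974, 885 and 971 CPM. The groups did not overlap, but the lowest copper library (975) and the highest control library (974) were nearly equal. The log2 fold change was 0.15 (SE 0.10, 95% interval -0.084 to 0.37). It was even across replicates, at 0.12, 0.14 and 0.17 in replicates 1, 2 and 3.

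The summed level of HLA-B, HLA-C and HLA-E was 890, 888 and 1197 CPM in copper and 773, 797 and 835 CPM in control. Scaled to the length of the exons in GENCODE 29, the order in control was B2M at 397 ± 21.1 CPM per kilobase (SD, n = 3), HLA-B at 277 ± 14.1, HLA-C at 166 ± 5.77, TAPBP at 76.6 ± 2.84, HLA-E at 40.4 ± 1.84, PSMB8 at 34.0 ± 0.452, PSMB9 at 18.0 ± 1.15, TAP1 at 14.4 ± 0.781 and TAP2 at 4.33 ± 0.295. No neighbours in this order overlapped over the 3 control libraries. In copper the order of the means was the same, but B2M (410 to 460) overlapped HLA-B (320 to 432), and HLA-E (36.4 to 48.1) overlapped PSMB8 (36.7 to 45.0 CPM per kilobase).

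The minor heavy chain HLA-F, taken from the wider list of class I genes, had 8.97 to 14.2 CPM in copper and 6.68 to 9.96 CPM in control, a log2 fold change of 0.39 (SE 0.23) that was 0.17 without copper replicate 3 and 0.25 without control replicate 1.

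Class I genes are near-identical in parts and vary between people, and it is not stated how reads matching several genes were counted. Of all 50-base windows of the GENCODE 29 coding transcripts, 2.35% of HLA-B, 6.34% of HLA-C and 5.13% of HLA-E also occurred in a transcript of another gene. For 100-base windows these shares were 0%, 0.243% and 0.600%. In TAP2 it was 32.7% of 50-base windows, all of them with AL669918.1, and in PSMB9 10.3% (4.87% of 100-base windows), all with PSMB8-AS1. The deposited positions of HLA-B, HLA-C, TAP2, TAPBP and PSMB8 were over 1000000 bases from the GRCh38.p14 ends of these genes. This held for 117 of 247 matched genes between 29 and 35 Mb of chromosome 6 and for 586 of 25547 matched genes in all. Positions given here are therefore those of RefSeq. In the deposited positions PSMB8 lay wholly inside TAP2 (3331 of 3331 bases) on the same strand, where RefSeq has 0 shared bases. What this did to the counts was not tested.

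The peptide pump genes showed small differences. TAP1 (Entrez 6890; chromosome 6, 32845209 to 32853704) stood at 46.7, 43.9 and 45.3 CPM in copper and 43.3, 44.6 and 40.1 CPM in control, and the groups overlapped. Its log2 fold change was 0.09 (95% interval -0.13 to 0.30), and 0.04 without control replicate 3. TAP2 (Entrez 6891; chromosome 6, 32821831 to 32838739) stood at 30.4, 33.7 and 27.3 CPM in copper and 24.8, 28.4 and 27.0 CPM in control. Here copper replicate 3 was the lowest copper library, unlike HLA-B and HLA-C. The log2 fold change of TAP2 was 0.19 (SE 0.12, 95% interval -0.081 to 0.46), and it was 0.29, 0.25 and 0.01 in replicates 1, 2 and 3. In replicates 1 and 2 alone it was 0.27, with an adjusted p of 0.248. Without copper replicate 2 it was 0.10.

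TAPBP (Entrez 6892; chromosome 6, 33299694 to 33314078) stood at 296, 317 and 361 CPM in copper and 310, 334 and 321 CPM in control. Copper replicate 3 was above the control range and copper replicate 1 below it. The log2 fold change was 0.02 (95% interval -0.23 to 0.26), and it was -0.06, -0.07 and 0.17 in replicates 1, 2 and 3.

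The immunoproteasome subunits PSMB8 and PSMB9 were higher in all copper libraries than in any control library. PSMB8 (Entrez 5696; chromosome 6, 32840717 to 32844679), which replaces the constitutive subunit PSMB5, stood at 61.0, 56.8 and 69.7 CPM in copper and 53.5, 52.1 and 52.6 CPM in control. The control libraries were close together and copper replicate 3 was the highest. Its log2 fold change was 0.24 (SE 0.10, 95% interval 0.0028 to 0.49), with an unadjusted p of 0.0480 and an adjusted p of 1.00 by edgeR. PSMB9 (Entrez 5698; chromosome 6, 32854192 to 32859851), which replaces PSMB6 and starts 487 bases from TAP1 on the other strand, stood at 19.6, 18.1 and 26.4 CPM in copper and 15.4, 16.7 and 17.6 CPM in control. Copper replicate 2 was only just above the control range. The log2 fold change of PSMB9 was 0.36 (SE 0.16, 95% interval -0.0073 to 0.74), with an unadjusted p of 0.0536. Without copper replicate 3 it was 0.18. PSMB8-AS1, an antisense gene that shares 594 bases with PSMB8 in RefSeq, was at 48 to 52 counts per copper library and 42 to 67 per control library. The use of strand in counting is not stated.

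**Figure D2:**
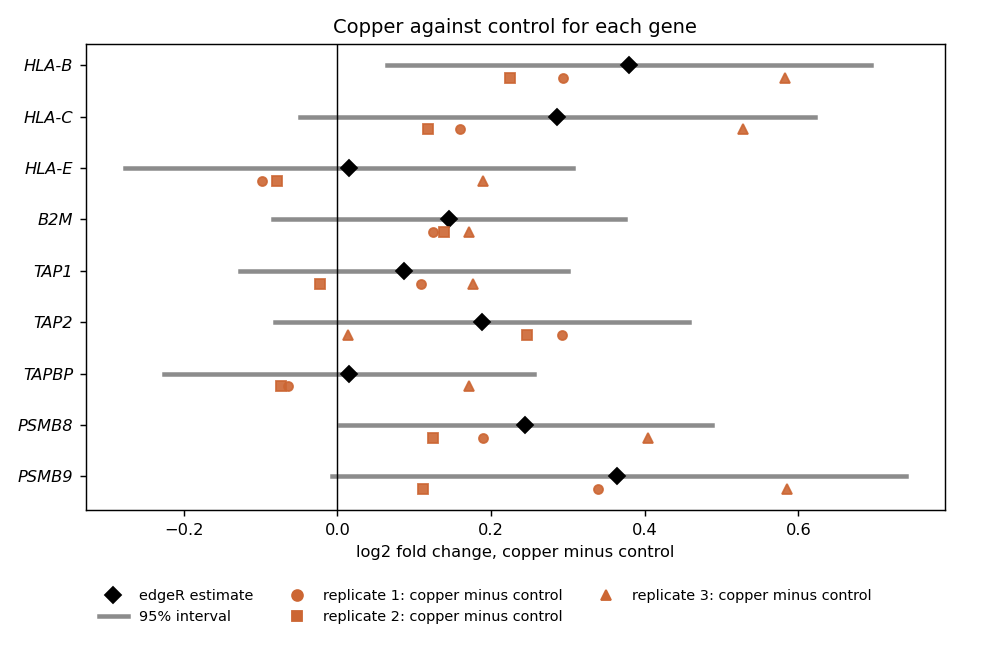
Log2 fold change of copper against control for each of the 9 genes, with edgeR's estimate as a diamond, its 95% interval as a grey bar, and the difference between same-numbered libraries as orange points. The interval lay above 0 for HLA-B and PSMB8 only, and for 8 of the 9 genes (all but TAP2) the largest of the 3 differences was that of replicate 3.

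The ratio of an immunoproteasome subunit to its constitutive counterpart was taken from the counts within each library, with no length scaling. PSMB8 over PSMB5 was 0.806, 0.744 and 0.754 in copper and 0.681, 0.697 and 0.646 in control. All 3 copper libraries were higher, by 0.19 on the log2 scale in the means. PSMB9 over PSMB6 was 0.224, 0.217 and 0.256 in copper and 0.178, 0.201 and 0.221 in control, a difference of 0.21, and the groups overlapped. PSMB10 over PSMB7, the third such pair, was 0.0191 to 0.0277 in copper and 0.0215 to 0.0264 in control, a difference of -0.04. The two-sided exact permutation p-values (n = 3 against 3) were 0.1, 0.2 and 0.8. Over the 10 ratios computed the adjusted values were 0.5, 0.5 and 0.889, and the smallest p this design allows is 0.1.

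**Figure D3:**
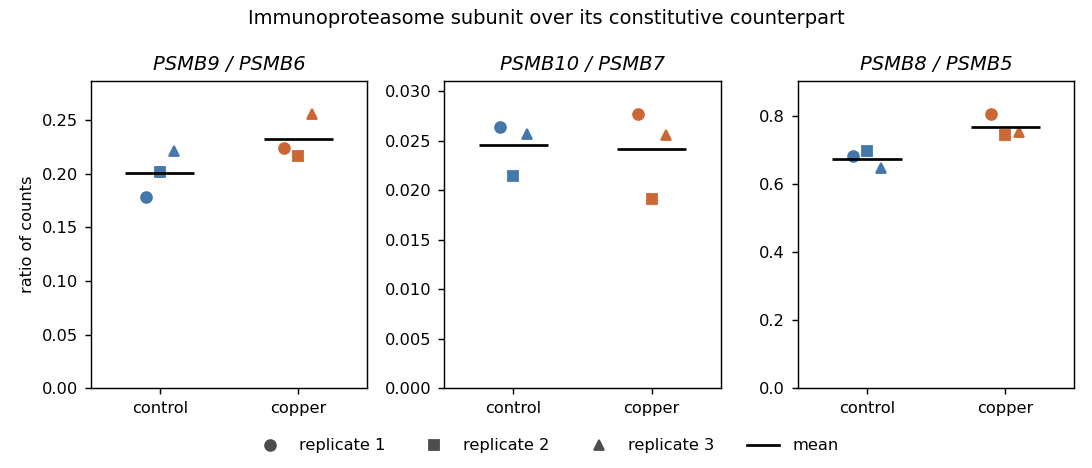
Ratio of counts of each inducible proteasome subunit to the constitutive subunit it replaces, by library, with black lines for the mean of each group. For PSMB8 over PSMB5 the copper libraries (0.744 to 0.806) lay above the control libraries (0.646 to 0.697), while the other 2 ratios overlapped.

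The 9 genes did not vary as a single block across the 6 libraries. HLA-B, HLA-C, PSMB8 and PSMB9 had the most alike profiles, with Pearson's r of log2 CPM from 0.94 (HLA-B with PSMB8) to 0.98 (HLA-C with PSMB9). TAP1 and PSMB9, which start next to each other, had r = 0.42, and TAP2 with HLA-E had the lowest value, -0.59. Over all 36 pairs the median was 0.57, and 31 were positive. These values rest on 6 libraries that share the group difference and the position of replicate 3, and are given as a description.

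Replicate 3 was compared with replicates 1 and 2 with group as a term. Of the 9 genes only HLA-C was called by edgeR, higher in replicate 3 by 0.28 on the log2 scale (adjusted p 0.0451), against 29.6% of all tested genes called in this comparison and 15.3% called higher (14.3% lower). Leaving out replicate 1 or 2 of either group ended this call. The share of all tested genes called in those fits is not given here. Without the replicate 3 library of 1 group, replicate 3 is a single library. HLA-C was then higher by 0.09 without copper replicate 3 and by 0.47 without control replicate 3. In the fit to all libraries PSMB9 was higher by 0.31 (adjusted p 0.0532) and HLA-B by 0.26 (0.0558). Most of this lay in copper. The log2 difference of replicate 3 from the mean of replicates 1 and 2 was 0.42 in copper and 0.09 in control for HLA-B, 0.47 and 0.09 for HLA-C, 0.37 and 0.09 for HLA-E, and 0.49 and 0.13 for PSMB9. That copper and control differed in this was not tested. Replicates 1 and 2 alone gave 0 calls among the 9 and 5 with an unadjusted p under 0.05, against 12.5% of all tested genes. They gave 6 of the 9 genes without overlap and with copper higher, where 22.5% of all tested genes met this with 2 libraries a group, and the median log2 fold change was 0.14.

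Genes around the core set were taken from lists written from general knowledge. Of 12 further class I chains and loading factors, all tested, 6 had a positive and 6 a negative log2 fold change, with a median of 0.0059. Of these, 0 were called and 0 were free of overlap between groups, against 0% and 10.8% of all tested genes. With replicates 1 and 2 alone 8 were positive (median 0.04). The chaperone CALR was at 1265 ± 61.4 CPM with copper and 1223 ± 67.9 CPM without (SD, n = 3), and its log2 fold change was 0.05. The trimming peptidases ERAP1 and ERAP2 had log2 fold changes of -0.10 and 0.10, and that of ERAP2 was 0.03 without copper replicate 2. ERAP1 was lower in copper replicate 3, at 37.2 CPM, than in the other 5 libraries (46.9 to 53.2 CPM).

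Of 9 other proteasome and activator genes, all tested, 8 were higher in copper by log2 fold change (median 0.11), and 0 were called by edgeR. Among all 12944 tested genes, 6657 were higher in copper by log2 fold change. At an unadjusted p under 0.05 there was 1, PSME2, against 3.52% of all tested genes. Replicates 1 and 2 alone gave 6 positive values (median 0.07). PSME2, a subunit of the interferon-inducible PA28 activator, stood at 60.4, 56.1 and 58.1 CPM in copper and 52.9, 48.1 and 48.2 CPM in control. It did not overlap and was even across replicates, with a log2 fold change of 0.23 (SE 0.09, unadjusted p 0.0405, adjusted p 1.00 by edgeR). Its partner PSME1 had a log2 fold change of 0.09, and it was 0.25 in replicate 3 and near 0 in replicates 1 and 2. Of the constitutive subunits, PSMB5 (0.06) and PSMB6 (0.14) overlapped between groups. PSMB7 (0.22) and the assembly factor POMP (0.11) did not overlap, with copper higher, as for 5.45% of all tested genes. Without copper replicate 3 the values were 0.04 for PSMB6 and 0.13 for PSMB7. The inducible subunit PSMB10 was low, at 6.36 ± 1.48 CPM in copper and 5.56 ± 0.801 CPM in control, with a log2 fold change of 0.19 that was 0.05 without copper replicate 3, 0.08 without control replicate 2 and 0.36 without copper replicate 2.

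Among the regulators of class I transcription and interferon signalling, negative values were the more frequent. Of 22 genes, all tested, 7 had a positive and 15 a negative log2 fold change, with a median of -0.05. Among all 12944 tested genes, 6657 were positive and 6287 negative. EdgeR called 0, and 0 had an unadjusted p under 0.05, against 3.52% of all tested genes. In replicates 1 and 2 alone the same list held 11 positive and 11 negative values, with a median of -0.0030. NLRC5 stood at 14.1 ± 0.272 CPM in copper and 13.0 ± 0.410 CPM in control (SD, n = 3), without overlap, with a log2 fold change of 0.13. IRF1 stood at 20.8, 20.7 and 26.3 CPM in copper and 19.6, 19.0 and 17.8 CPM in control, a log2 fold change of 0.26 (SE 0.13), again largest in replicate 3, and 0.14 without copper replicate 3. The receptor chain IFNGR1 was lower in all copper libraries (33.5 to 34.8 CPM) than in any control library (36.8 to 40.9 CPM), with a log2 fold change of -0.19. Among all tested genes, 5.35% were free of overlap with copper lower and 5.45% with copper higher. RFXANK, a subunit of the RFX complex on class I and class II promoters, had a log2 fold change of 0.33 (SE 0.19), and of 0.11 in replicates 1 and 2 alone and without copper replicate 3.

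Of 25 other interferon-induced genes 20 were tested, and 19 of these had a log2 fold change above 0 (median 0.25), against 6657 of all 12944 tested genes. The split was 17 above and 3 below 0 with the replicate block, and 15 above and 5 below (median 0.17) in replicates 1 and 2 alone. EdgeR called 0 of them, and 3 had an unadjusted p under 0.05, against 3.52% of all tested genes. In 7 of the 20 the groups did not overlap with copper higher, against 5.45% of all tested genes. The antiviral gene TRIM22 stood at 26.6, 26.5 and 18.3 CPM in copper and 16.7, 16.9 and 14.3 CPM in control, with a log2 fold change of 0.58 (SE 0.17). It was called in replicates 1 and 2 alone (0.66, adjusted p 0.00552 by edgeR), where 0.856% of all tested genes were called. IFI44 and IFI6 had log2 fold changes of 0.47 and 0.37, without overlap, and in replicates 1 and 2 alone these were 0.48 and 0.17. The higher direction of an interferon list was known from an earlier analysis of these libraries and is no independent support.

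Class II genes were low. Of 15 class II genes and ligands of NK cell receptors, 8 were tested, with 4 positive and 4 negative log2 fold changes. EdgeR called 0 of these, and 0 had an unadjusted p under 0.05, against 3.52% of all tested genes. Of the class II genes, CD74, the invariant chain, was tested at 3.30 ± 0.928 CPM in copper and 3.33 ± 0.749 CPM in control (SD, n = 3). HLA-DRA did not pass the filter, at 0.0180 ± 0.0312 CPM in copper and 0.0338 ± 0.0293 CPM in control. HLA-DMA, a class II loading factor, had a log2 fold change of 0.33 (SE 0.29), which was 0.06 without copper replicate 2 and 0.20 without control replicate 1. The NK ligands MICA and ULBP1 had log2 fold changes of 0.12 and -0.21, and both overlapped between groups. Without copper replicate 3 these were 0.04 and -0.01.

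**Figure D4:**
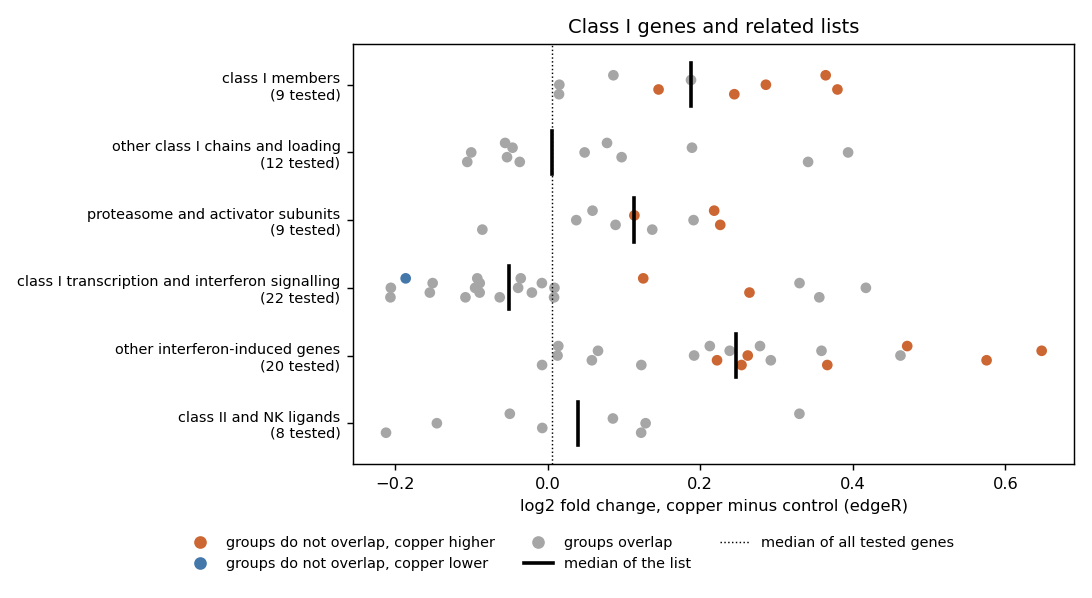
Log2 fold change of copper against control for the tested genes of each list, 1 point a gene, orange or blue where the groups do not overlap and grey where they do. Black bars are list medians and the dotted line the median of all tested genes. The 9 class I genes and the other interferon-induced genes have medians of 0.19 and 0.25, and the regulators one of -0.05.

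The genes whose profile was most like the mean of the 9 were found by Pearson's r of log2 CPM over the 6 libraries, among genes with at least 5 CPM. The 8 highest were PHLDA3 (0.996), OCIAD2 (0.996), ERG28 (0.993), NCBP2AS2 (0.991), RAB42 (0.988), RABEP2 (0.985), SNU13 (0.983) and NDUFA8 (0.982). PHLDA3, a p53 target, stood at 63.3, 61.8 and 86.3 CPM in copper and 53.3, 56.4 and 56.7 CPM in control. The profile of the 9 was highest in copper replicate 3, at 1.36 in SD units, then in copper replicates 1 and 2 at 0.19 and -0.02, and was -0.63 to -0.45 in control. Among all 12944 tested genes, with no minimum level, 75 outside the 9 exceeded 0.95.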

How the data were processed

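Strand-specific libraries of total RNA were prepared with a NEBNext kit, per the labels' protocols. For each of 6 libraries the authors deposited whole-number counts per gene. STAR, FastQC, edgeR and GRCh38 are named in the submitters' processing notes, with no role or version. The counting program, its use of strand and the treatment of reads matching several genes are not given in the sources used here. Genes without a symbol (5, with 0.000814% of counts) were left out.

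The analysis used edgeR 4.0.16 (R 4.3.3) with filterByExpr (minimum count 10, minimum total 15), TMM factors, a robust quasi-likelihood fit of group alone, Benjamini-Hochberg adjustment over all 12944 tested genes and a threshold of 0.05. A prior count of 2 entered the log2 fold changes, and CPM are counts over TMM-scaled library size. Alternatives included DESeq2 1.42.0 and limma-voom (limma 3.58.1). The fit was checked on simulated counts.

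Named genes were the 9, the 3 of each other list with the smallest p, 11 fixed genes of the pathway, and the 8 with the most alike profile. Of these, 2 are not reported here. HLA-DRA, CD74 and PSMB8-AS1, and PAX8, CA9, LRP2 and PTPRC as markers, were added after their values were seen. The members and lists were chosen with earlier results of these data known.

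Groups share replicate numbers in the labels. Deviations of same-numbered libraries from their group means correlated across tested genes at 0.46, 0.40 and 0.65, above the minimum of 0.1 set for pairing, so a fit with replicate number as a block was run. Replicates 1 and 2 are weakly told apart, since their difference correlated between groups at 0.15. The lowest within-group chi-square of counts was 5.04 per degree of freedom, and each library was kept as a separate sample.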

Additional observations from a re-analysis of the deposited data

How the results depend on the processing

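Under 19 alternatives for each of the 9 genes, 0 were called, with the lowest adjusted p of 0.0836 for HLA-B in replicates 1 and 2 alone. HLA-B, HLA-C, B2M, TAP1, TAP2, PSMB8 and PSMB9 kept a positive log2 fold change in all 19. The median of the 9 stayed between 0.11 (without copper replicate 3) and 0.23 (without control replicate 2). The all-gene median was 0.0281 under upper-quartile and 0.0325 under total-count scaling. The number of the 9 without overlap and with copper higher was 4 to 6 under other scalings, against 5.35% to 7.21% of all tested genes. With 1 library left out it was 5 to 7, against 7.46% to 16.9% of all tested genes.

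Over the whole table edgeR called 0 genes, and 22 once replicate number entered as a replicate block. DESeq2 called 27, or 58 when it was blocked too. Dropping the filter gave 12 calls, a term parting replicate 3 gave 35, and using only replicates 1 and 2 gave 111. It ranged from 0 to 15 with 1 library left out, and 15 was without copper replicate 3. The block changed no call of the genes named here. Between replicate 3 and replicates 1 and 2, 4 of the 9 genes were called with upper-quartile scaling and 3 with total counts. The share of all genes called under these settings is not given here, and it was 29.6% in the main fit. With replicate 1 or 2 of either group left out, 0 of the 9 were called, and the share of all genes is again not given. Leaving out a replicate 3 library makes replicate 3 a single library, so calls are not counted there. Without control replicate 3, HLA-B was higher in replicate 3 by 0.42, HLA-E by 0.37 and PSMB9 by 0.49. Without copper replicate 3 these values were 0.09, 0.09 and 0.13.

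Values near 0 changed sign. HLA-E was at -0.0045 and TAPBP at -0.0037 with no filter. In replicates 1 and 2 alone HLA-E was at -0.0895, TAPBP at -0.0691, ERAP1 at 0.0724, PSME1 at -0.0063 and PSMB5 at -0.0132. With 1 library left out, the log2 fold change ranged from -0.121 to 0.0853 for HLA-E, -0.0675 to 0.0752 for TAPBP, -0.199 to 0.0451 for ERAP1, -0.0252 to 0.149 for PSME1, -0.0416 to 0.107 for PSMB5 and -0.00152 to 0.0723 for CALR. The sign changed without copper replicate 3 for all of these but CALR. It also changed without control replicate 1 for CALR and TAPBP, and without control replicate 2 for HLA-E. The cause was not tested. TRIM22 was also called with the term parting replicate 3 (0.566, adjusted p 0.0480), a setting chosen after seeing the data, as were the alternatives for the overlap count and for replicate 3. PSMB10 and HLA-DRA are limited by low counts.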
